A study of Mus musculus with 6 samples.

Results

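The genes described here are 9 published direct targets of the miRNA-26 family, *Ezh2*, *Smad1*, *Smad4*, *Gsk3b*, *Tet2*, *Tet3*, *Tdg*, *Cdk6* and *Hmga2*, out of 55341 genes in the count table. They were chosen by name from the literature on miRNA-26a and miRNA-26b. The rule of choice used no measured value, but earlier results of these data were known when the choice was made. Aortic RNA was sequenced from 6 mice, 8 weeks old and fed chow, 3 of them miRNA-26b-/- and 3 miRNA-26b+/+, with 1 library for each mouse. The allele was floxed in embryonic stem cells of 129/Sv origin and deleted with tamoxifen and CreERT2, and CreERT2 was then removed by breeding. All 6 mice are labelled C57BL/6NCrl, whereas the methods give a C57BL/6 background and the founders were first bred as a mix of 129/Sv and C57BL/6, and how much 129/Sv genome remains in either group is not given in the sources used here. The miRNA-26b+/+ mice carry the intact allele, and whether they were littermates is not given in the sources used here. Both groups keep the genes of miRNA-26a. The mice are numbered 1 to 3 within each group only to name them.

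A miRNA guides an Argonaute protein to messenger RNAs whose 3′ untranslated region (3′ UTR) pairs with the seed, bases 2 to 8 counted from the 5′ end of the miRNA. Pairing lowers the translation of the messenger and often its amount, so a loss of the miRNA can leave more of a target's RNA, and the question here was whether the RNA of published targets was higher in miRNA-26b-/- vessels. In the vessel wall, the miRNA-26 family is known from work on BMP and SMAD signalling in endothelial and smooth muscle cells. The targets fall into 4 roles. *Ezh2* is the methyltransferase of the Polycomb repressive complex PRC2, and *Tet2*, *Tet3* and *Tdg* remove DNA methylation. *Smad1* and *Smad4* carry BMP signals to the nucleus. *Gsk3b* is a kinase that marks beta-catenin for degradation. *Cdk6* drives entry into the cell cycle, and *Hmga2* is a chromatin protein of embryonic tissue.

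The mature sequences, shown because the seed defines the sites searched in the targets, are from RefSeq on GRCm38.p6, with the seed in capitals. The miRNA-26b arm lies on the forward strand at chr1:74394324-74394344, within *Ctdsp1*. The same mature miRNA-26a is made from 2 loci on the forward strand, chr9:119031811-119031832 and chr10:126995543-126995564.
miR-26b-5p: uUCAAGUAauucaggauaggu
miR-26a-5p: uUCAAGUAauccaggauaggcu
Both have the seed UCAAGUA. Counted from the 5′ end with the base of miRNA-26b first, they differ by U11C and U21C, both outside the seed, and miRNA-26a has 1 more base at its 3′ end. A site for one is therefore a seed site for the other, and the seed alone cannot assign a target to miRNA-26b.

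The 3′ UTRs of the targets were searched on the transcript strand for the 8mer TACTTGAA, which pairs with the seed and has an A opposite base 1 of the miRNA, and for the shorter 7mer-m8 TACTTGA and 7mer-A1 ACTTGAA, each counted only outside an 8mer. In the longest annotated 3′ UTR of each gene, 7 of the 9 targets held at least 1 site and 4 held an 8mer, with 16 sites in all, of which 6 were 8mers. Of 21140 genes with an annotated 3′ UTR, 18.9% held a site of any kind and 4.30% an 8mer in the longest one. *Ezh2* and *Smad1* had no site in their longest 3′ UTR but an 8mer in another annotated transcript, so that 9 of 9 targets had a site in some transcript, against 20.7% of genes. For both genes, the shorter 3′ UTR with the 8mer runs to the annotated 3′ end of the gene, so it need not be that of a minor transcript. The choice of published direct targets may itself partly rest on such sites, so these shares describe the targets and test nothing. Several targets also have long 3′ UTRs: *Cdk6* has 10217 bases (percentile 99.7 of all genes), *Tet3* 5669 bases and *Gsk3b* 5515 bases, against a median of 1084 bases over all genes. Those of *Ezh2*, at 1018 bases (percentile 48.0), and *Smad4*, at 1249 bases (percentile 54.7), lie near that median.

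The sites with the longest match in each target are shown as 30 bases of GRCm38 sequence on the strand of the gene, with the site in capitals, so that the letters common to all targets can be compared.
Cdk6 8mer: agtcgggggaccctgtgctcTACTTGAAgt
Cdk6 8mer, the other: gcttttaccttgctttttcaTACTTGAAat
Tet3 8mer: ggaggtgaacttaacaaccaTACTTGAAta
Tet3 8mer, the other: ttgactttgtaaactgtggcTACTTGAAat
Tet2 8mer: cttctgcttggtgtcaacatTACTTGAAtg
Gsk3b 8mer: caaacgctgtgtaacattacTACTTGAAtg
Ezh2 8mer: tttcaaatttgaataaagaaTACTTGAAct
Smad1 8mer: aaactatcgagccttgcatgTACTTGAAgg
Tdg 7mer-m8: aggaaaaatagggtgttttgTACTTGAgtt
Hmga2 7mer-m8: tgtataatcttgtagacactTACTTGAttt
The *Cdk6* windows lie on the forward strand at chr5:3528126-3528155 and chr5:3529981-3530010, and their sites start at bases 7355 and 9210 of its 3′ UTR. The *Tet3* windows lie on the reverse strand at chr6:83362801-83362830 and chr6:83362764-83362793, which places the starts of the sites at bases 5232 and 5269 of the 3′ UTR. The windows of *Tet2* (chr3:133464019-133464048, reverse strand) and *Gsk3b* (chr16:38245250-38245279, forward strand) also lie in the last part of the 3′ UTR, the sites starting 350 and 815 bases from its end. The *Ezh2* window (chr6:47530284-47530313, reverse strand) belongs to 4 of its 8 transcripts with a 3′ UTR, and that of *Smad1* (chr8:79339594-79339623, reverse strand) to 1 of 2. The windows of *Tdg* (chr10:82648898-82648927, forward strand) and *Hmga2* (chr10:120363687-120363716, reverse strand) hold 7mers in the first part of the 3′ UTR. 

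*Smad4* had 1 site, a 7mer-m8 starting at base 978 of its 3′ UTR of 1249 bases, of which no sequence is shown.

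**Figure D1:**
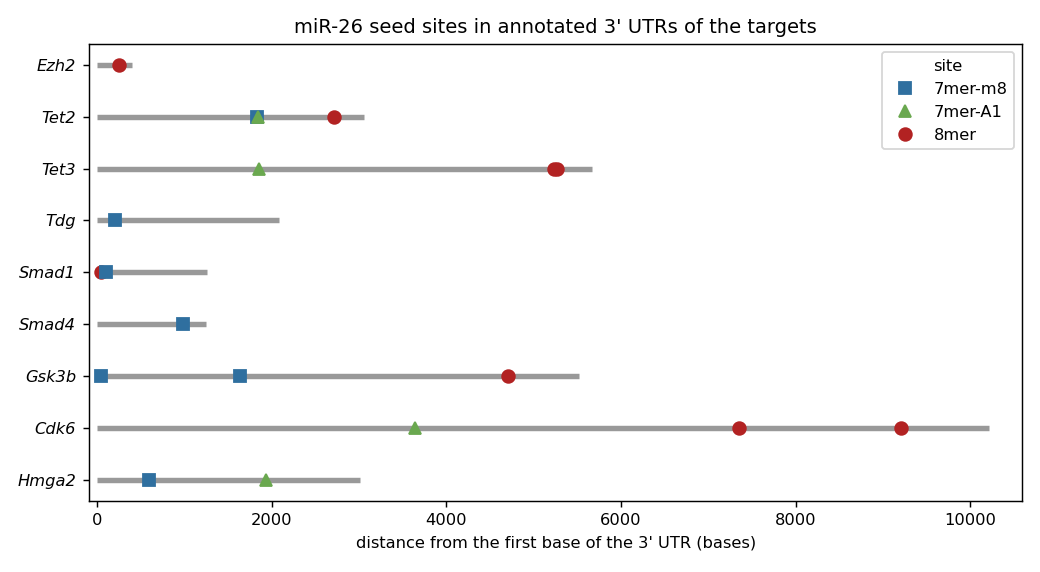
Each grey line is the 3′ UTR of a target, in bases from its first base, and each mark is a miRNA-26 seed site by kind. The longest 3′ UTR is drawn except for *Ezh2* and *Smad1*, where a transcript with a site is drawn; the 8mers of *Cdk6*, *Tet3*, *Tet2* and *Gsk3b* lie toward the end of a long 3′ UTR, and *Smad4*, *Tdg* and *Hmga2* have 7mers but no 8mer.

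The libraries held 25.7 to 33.3 M counts, and 16017 genes passed the filter on low counts. Of the targets, 8 passed and *Hmga2* did not. No reads of the Mir26b hairpin were counted in miRNA-26b-/- mice, and the miRNA-26b+/+ mice had 0, 20 and 0 reads of it. A messenger library does not measure the mature miRNA, so these counts are no check of the genotype. The labels name endothelial cells, whereas the methods describe explants of the aortic arch and thoracic aorta. Smooth muscle markers summed to between 11546 and 14997 CPM (counts of a gene per 1 M counts of its library) per kb of exon and endothelial markers to between 103 and 296, so the libraries hold the vessel wall rather than endothelial cells alone. In such tissue, fewer cells of a type and less RNA per cell cannot be told apart. The 10 endothelial markers summed to 576 and 646 CPM in miRNA-26b-/- mice 1 and 2, 1942 CPM in miRNA-26b-/- mouse 3 and 1408 to 1911 CPM in the miRNA-26b+/+ mice, with 2 of them lower at an unadjusted p under 0.05 and none at 0. Not every marker followed these sums. In miRNA-26b-/- mice 1, 2 and 3, *Kdr* was at 22.0, 29.7 and 8.83 CPM and *Egfl7* at 38.4, 24.6 and 31.2 CPM. The other endothelial markers were lower in mice 1 and 2 than in mouse 3, *Eng* only slightly in mouse 2 (150 against 155 CPM). The 10 Schwann cell markers summed to 424 to 607 CPM in the miRNA-26b-/- and 255 to 341 CPM in the miRNA-26b+/+ libraries, with 7 of 8 tested higher at an unadjusted p under 0.05. Sympathetic neuron markers summed to 100.4, 416 and 74.0 CPM in miRNA-26b-/- mice 1, 2 and 3 and 109 to 158 CPM in the controls, with 4 of 9 tested higher. Skeletal and cardiac muscle markers summed to 38.1, 313 and 16.5 CPM and, in the controls, to 50.6, 212 and 22.1 CPM, with 5 of 9 tested higher and none lower, although the sums overlapped. Leukocyte markers summed to 204, 240 and 567 CPM in miRNA-26b-/- mice 1, 2 and 3 and 339 to 397 CPM in the controls. Fibroblast markers summed to 8208, 9117 and 14487 CPM in these mice and 8876 to 10274 CPM in the controls. No tested marker of these 2 lists had an unadjusted p under 0.05. The part of these cells in the values of the targets was not tested.

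*Cdk6* had the largest difference toward miRNA-26b-/- among the 8 targets tested, and *Tet3* the next, but no target passed the adjusted threshold. With edgeR's quasi-likelihood test, 0 of 8 targets had a Benjamini-Hochberg adjusted p under 0.05, and 1 gene of all genes tested did (0.00624%). At an unadjusted p under 0.05, 1 target was higher in miRNA-26b-/- (*Cdk6*) and 0 were lower, against 3.40% of all genes higher, 3.07% lower and 6.47% in either direction. With edgeR's test made one-sided for a rise, 1 target, again *Cdk6*, had an unadjusted p under 0.05, against 6.47% of all genes. The fold changes of 5 targets were above 0 and those of 3 below, with a median log2 fold change of 0.13 (miRNA-26b-/- minus miRNA-26b+/+), against 0.01 over all genes, of which 51.4% were above 0. The 3 libraries of one group did not overlap with those of the other for 3 targets higher in miRNA-26b-/- (*Cdk6*, *Tet3* and *Smad1*; 5.65% of all genes) and 1 lower (*Smad4*, which overlapped when libraries were scaled by size alone; 5.88% of all genes). With 8 genes, such counts are too few to set the targets apart from the background.

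**Figure D2:**
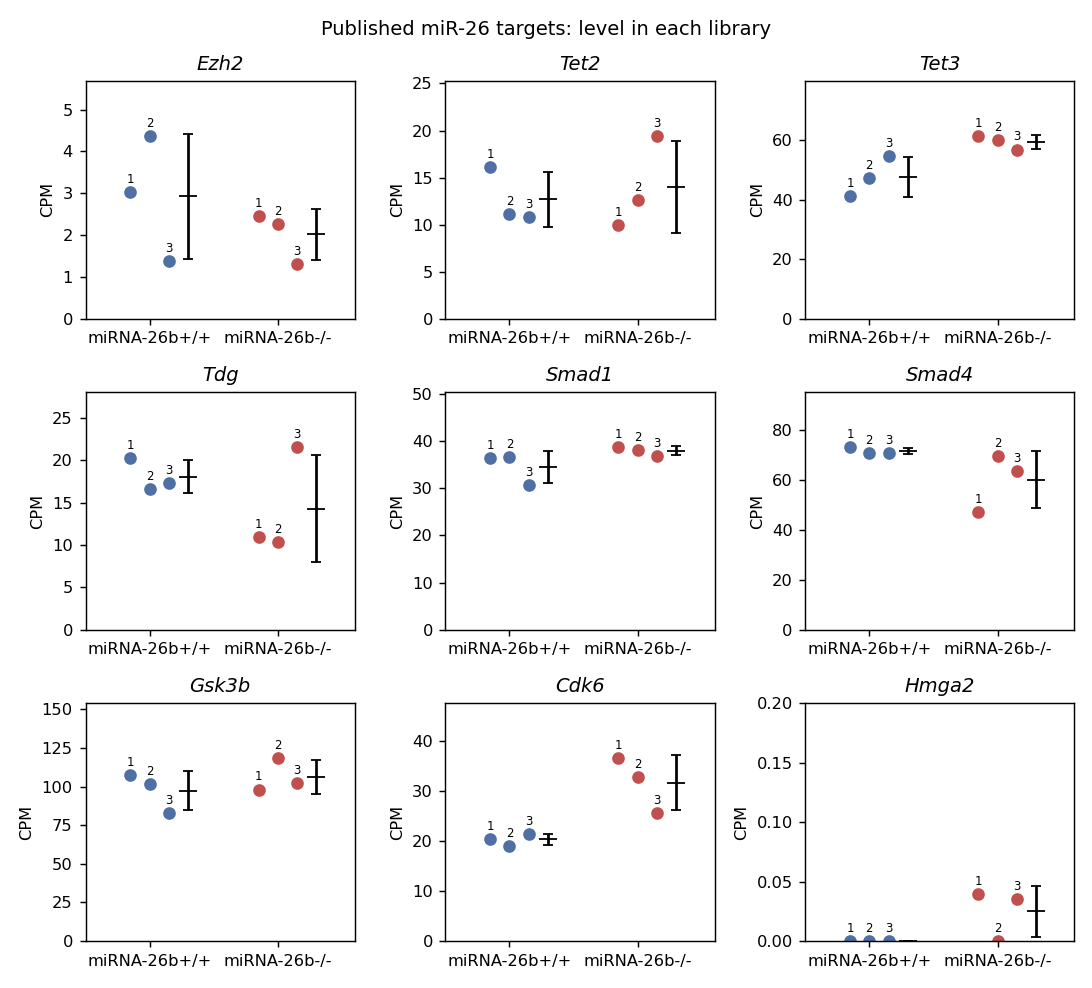
The level of each target in CPM, on a linear axis from 0, with 1 point per mouse numbered within its group (blue, miRNA-26b+/+; red, miRNA-26b-/-) and the mean ± SD of 3 mice as a bar. The points of the groups do not overlap for *Cdk6*, *Tet3*, *Smad1* and *Smad4* (*Smad4* overlapped with scaling by library size alone), and *Hmga2* was at or near 0 in every library.

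Levels between genes were compared as CPM per kb of exon, averaged over the 6 libraries. *Smad4* was highest, at 17.8 ± 2.61 CPM per kb (SD, n = 6), at percentile 83.0 of the genes tested. It was followed by *Gsk3b* at 10.4 ± 1.18, *Smad1* at 5.79 ± 0.461, *Tet3* at 3.21 ± 0.473, *Tdg* at 3.01 ± 0.869 and *Cdk6* at 1.86 ± 0.514 CPM per kb. *Tet2*, at 0.791 ± 0.219, and *Ezh2*, at 0.370 ± 0.171 CPM per kb, were at percentiles 15.3 and 7.14. The order is not resolved among *Tet3*, *Tdg* and *Cdk6*, or between *Tet2* and *Ezh2*, whose ranges over the libraries overlapped.

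*Cdk6* (ENSMUSG00000040274.11; chromosome 5, 3341485 to 3531008, forward strand) encodes a kinase that, with a D-type cyclin, phosphorylates the retinoblastoma protein. Its level was 36.5, 32.8 and 25.6 CPM in miRNA-26b-/- mice 1, 2 and 3, from 935, 1101 and 722 counts. In miRNA-26b+/+ mice 1, 2 and 3 it was 20.5, 19.1 and 21.3 CPM, from 627, 523 and 644 counts. Of the exon bases of *Cdk6*, 2.63% are shared with *Gm17590*, and reads there were counted for both genes. Every miRNA-26b-/- library was above every miRNA-26b+/+ library, and the spread was wider in miRNA-26b-/-, with mouse 3 nearest to the controls. The means were 31.7 ± 5.56 and 20.3 ± 1.14 CPM (SD, n = 3 in each group). On the log2 scale the difference was 0.64 (SE 0.251, 95% interval 0.10 to 1.17), or 1.56-fold, with 1.07-fold to 2.26-fold inside the interval. For *Cdk6* the unadjusted p was 0.0226 and the adjusted p was 0.736 (edgeR, two-sided). An exact permutation test over the mice gave p = 0.1, the smallest that 3 against 3 allows when two-sided. Leaving out 1 library in turn gave log2 fold changes from 0.53 (without miRNA-26b-/- mouse 1) to 0.77 (without miRNA-26b-/- mouse 3). Without miRNA-26b-/- mouse 1, miRNA-26b-/- mouse 2 or miRNA-26b+/+ mouse 2, the unadjusted p of *Cdk6* was 0.0791, 0.0597 or 0.0617. *Cdk6* was highest in the 2 miRNA-26b-/- libraries with the low sums of endothelial and leukocyte markers. Not every endothelial marker followed these sums, and whether they bear on *Cdk6* was not tested.

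The kinase acts with cyclins D and its inhibitors, and 16 of 19 genes listed as partners of CDK6 in the cell cycle were tested. None had an unadjusted p under 0.05 in either direction, and their median log2 fold change was 0.11. *Ccnd1*, a D-type cyclin that binds CDK6, was at 36.6 ± 15.4 CPM in miRNA-26b-/- mice, against 30.6 ± 4.05 CPM in miRNA-26b+/+ mice, with overlapping groups. *E2f1*, a factor released by phosphorylated retinoblastoma protein, was at 3.91, 0 and 3.90 CPM in miRNA-26b-/- mice, against 3.59, 2.59 and 4.24 CPM in miRNA-26b+/+ mice. Markers of proliferating cells summed to 14.7, 16.9 and 40.8 CPM in miRNA-26b-/- libraries, against 16.3 to 22.2 CPM in the controls. Of the 8 markers tested, 1 was higher at an unadjusted p under 0.05, *Mki67*, a marker of dividing cells, at 3.09, 3.73 and 13.4 CPM in miRNA-26b-/- and 0.522, 2.33 and 2.45 CPM in the controls (log2 fold change 1.94, SE 0.783, unadjusted p = 0.0254, adjusted p = 0.736 with edgeR). The groups did not overlap for *Mki67*, and it was highest in miRNA-26b-/- mouse 3, which had the least *Cdk6* of that group. *Top2a*, another of these markers, went the other way, also without overlap. It was at 1.13, 3.40 and 3.72 CPM in miRNA-26b-/- and 6.01, 4.26 and 5.92 CPM in the controls. Its log2 fold change was -0.94 (SE 0.602, unadjusted p = 0.140 with edgeR), so the markers did not share a direction. The part of dividing cells in the level of *Cdk6* was not tested.

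*Tet3* (ENSMUSG00000034832.15; chromosome 6, 83362373 to 83459084, reverse strand) encodes a dioxygenase that oxidizes methylated cytosine. It was at 61.4, 60.2 and 56.8 CPM in miRNA-26b-/- mice and at 41.1, 47.2 and 54.7 CPM in miRNA-26b+/+ mice. The groups did not overlap, and the highest control was close to the lowest miRNA-26b-/- library. The means were 59.5 ± 2.37 and 47.7 ± 6.80 CPM, with a log2 fold change of 0.32 (SE 0.191, 95% interval -0.09 to 0.73), unadjusted p = 0.116 and adjusted p = 0.821. The one-sided p for a rise was 0.0578. Leaving out 1 library gave log2 fold changes from 0.22 to 0.42.

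*Tet2* (ENSMUSG00000040943.12; chromosome 3, 133463679 to 133545139, reverse strand), its paralogue, was at 9.93, 12.6 and 19.4 CPM in miRNA-26b-/- mice, against 16.1, 11.1 and 10.8 CPM in miRNA-26b+/+ mice. The groups overlapped, with both the lowest and the highest library in miRNA-26b-/-. Its log2 fold change was 0.14 (SE 0.362, 95% interval -0.63 to 0.91), and it was -0.15 without miRNA-26b-/- mouse 3. The direction of *Tet2* thus rests on 1 library.

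*Tdg* (ENSMUSG00000034674.18; chromosome 10, 82629828 to 82650799, forward strand) encodes thymine DNA glycosylase, which cuts out the oxidized bases made by TET enzymes. Its level was 10.98, 10.3 and 21.6 CPM in miRNA-26b-/- mice 1, 2 and 3, against 20.3, 16.6 and 17.3 CPM in the controls. Mice 1 and 2 were below every control and mouse 3 above every control, so the miRNA-26b-/- group spanned the whole range. For *Tdg* the log2 fold change was -0.35 (SE 0.343, 95% interval -1.08 to 0.38; unadjusted p = 0.323 and adjusted p = 0.923 with edgeR). Without miRNA-26b-/- mouse 3 it was -0.77, with an unadjusted p of 0.0446 and an adjusted p of 0.444. The low values of *Tdg* were in the 2 miRNA-26b-/- libraries with low endothelial and leukocyte sums, and these relations were not tested. Of its exon bases, 6.83% are shared with *Glt8d2*, and reads there were counted for both genes. Smaller shares were found for *Cdk6* (2.63%), *Ezh2* (2.61%, *Gm26625*), *Hmga2* (2.07%, *1700006J14Rik*) and *Tet2* (0.255%, *Gm42567*).

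Among 14 tested genes of DNA demethylation and methylation outside the 9 targets described here, 2 were higher and 1 lower at an unadjusted p under 0.05. Over all genes tested, 3.40% were higher and 3.07% lower. The median log2 fold change of the 14 genes was 0.13. *Tet1*, the third TET dioxygenase, was at 16.8, 21.8 and 27.6 CPM in miRNA-26b-/- mice, against 6.92, 11.8 and 5.96 CPM in miRNA-26b+/+ mice. The groups lay well apart, with a log2 fold change of 1.45 (SE 0.362, unadjusted p = 0.00121, adjusted p = 0.647). *Dnmt3a*, which sets new DNA methylation, was at 99.5 ± 5.49 CPM against 68.7 ± 2.45 CPM, a log2 fold change of 0.53 (SE 0.162, unadjusted p = 0.0051, adjusted p = 0.734). Both kept an unadjusted p under 0.05 with each library left out. *Dnmt3b*, the paralogue of *Dnmt3a*, was at 0.508, 0.149 and 0.603 CPM in miRNA-26b-/- mice, against 2.51, 2.95 and 1.22 CPM in miRNA-26b+/+ mice, with a log2 fold change of -2.45 (SE 1.03, unadjusted p = 0.0281). *Dnmt3b* was under 1 CPM in each miRNA-26b-/- library and passed the low-count filter only through the miRNA-26b+/+ libraries, so its p-value is no support for a fall. Its counts were 5 to 17 in miRNA-26b-/- libraries, so this difference rests on few reads. Its unadjusted p was 0.105 without miRNA-26b-/- mouse 2 and over 0.05 in 4 of 6 fits without 1 library. The longest 3′ UTR of *Tet1* held 3 seed sites and that of *Dnmt3a* 2, each including an 8mer, and that of *Dnmt3b* 1 7mer. In the lists around the targets, *Apc*, *Suz12*, *Hmga1*, *Ccnd2* and *Rb1* also had an 8mer in the longest 3′ UTR. Their log2 fold changes were -0.20, -0.04, -0.35, 0.10 and 0.11, none with an unadjusted p under 0.05 (edgeR).

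*Ezh2* (ENSMUSG00000029687.16; chromosome 6, 47530139 to 47595341, reverse strand) was at 2.46, 2.27 and 1.31 CPM in miRNA-26b-/- mice, against 3.04, 4.37 and 1.39 CPM in miRNA-26b+/+ mice, from 37 to 120 counts. The groups overlapped, and one library of each group stood low. *Ezh2* had a log2 fold change of -0.52 (SE 0.742, 95% interval -2.10 to 1.06; unadjusted p = 0.493), an interval from 0.233-fold to 2.08-fold, so changes within these bounds could not be seen with these few counts and the spread between the mice, whose coefficient of variation was 30.6% in miRNA-26b-/- and 50.9% in miRNA-26b+/+. Of the 10 other subunits and accessory proteins of PRC2, 0 had an unadjusted p under 0.05 in the edgeR test, and their median log2 fold change was 0.01. *Eed*, a core subunit that binds methylated histone, was at 18.8 ± 3.75 and 23.1 ± 3.07 CPM with overlapping groups. *Phf19*, an accessory subunit, was at 3.29 ± 0.876 and 5.41 ± 4.05 CPM, where 1 control at 10.1 CPM set the mean.

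*Smad1* (ENSMUSG00000031681.16; chromosome 8, 79338395 to 79399518, reverse strand), a receptor-activated SMAD of the BMP pathway, was at 38.8, 38.2 and 36.9 CPM in miRNA-26b-/- mice, against 36.5, 36.5 and 30.7 CPM in miRNA-26b+/+ mice. The groups did not overlap, but the gap between them was smaller than the spread within either group. The log2 fold change of *Smad1* was 0.13 (SE 0.210, 95% interval -0.31 to 0.58; unadjusted p = 0.532), so a rise above 1.5-fold lies outside the interval.

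*Smad4* (ENSMUSG00000024515.13; chromosome 18, 73639009 to 73703780, reverse strand), the common partner of the receptor-activated SMADs, was at 47.4, 69.6 and 63.8 CPM in miRNA-26b-/- mice, against 73.3, 71.1 and 71.0 CPM in miRNA-26b+/+ mice. Every miRNA-26b-/- library lay below the controls, with mouse 1 farthest. With libraries scaled by their size alone the groups overlapped, as the highest miRNA-26b-/- library was at 70.13 and the lowest control at 69.7 CPM. The means were 60.3 ± 11.5 and 71.8 ± 1.33 CPM, with a log2 fold change of -0.24 (SE 0.188, 95% interval -0.65 to 0.16; unadjusted p = 0.214, adjusted p = 0.876 with edgeR). Without miRNA-26b-/- mouse 1 it was -0.11. The upper bound for *Smad4* is 1.12-fold.

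Of 6 other SMADs, 1 was higher and 1 lower at an unadjusted p under 0.05, against 3.40% higher and 3.07% lower of all genes. Both encode inhibitory SMADs, which block receptor-activated SMADs and are themselves BMP or TGF-beta target genes. *Smad6* was at 78.1, 107 and 66.9 CPM in miRNA-26b-/- mice, against 65.4, 53.7 and 50.6 CPM in miRNA-26b+/+ mice, with a log2 fold change of 0.58 (SE 0.207, unadjusted p = 0.0141, adjusted p = 0.736). *Smad7* was at 34.5, 42.5 and 36.6 CPM against 66.0, 42.7 and 66.8 CPM, with a log2 fold change of -0.62 (SE 0.222, unadjusted p = 0.0131, adjusted p = 0.736). The unadjusted p of *Smad6* was 0.124 without miRNA-26b-/- mouse 2 and 0.0606 without miRNA-26b+/+ mouse 3, and that of *Smad7* was 0.0602 without miRNA-26b+/+ mouse 1 and 0.0556 without miRNA-26b+/+ mouse 3. The longest 3′ UTRs of both have no miRNA-26 seed site. Of 7 tested BMP and SMAD1 target genes, which include both inhibitory SMADs, no other had an unadjusted p under 0.05, and the median log2 fold change was 0.14.

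*Gsk3b* (ENSMUSG00000022812.14; chromosome 16, 38089001 to 38246084, forward strand) was at 98.1, 118 and 102 CPM in miRNA-26b-/- mice, against 107, 102 and 83.1 CPM in miRNA-26b+/+ mice. The groups overlapped, and 5 of the 6 libraries lay between 98.1 and 118 CPM. The log2 fold change was 0.13 (SE 0.168, 95% interval -0.23 to 0.49; unadjusted p = 0.458), which leaves a rise above 1.40-fold outside the interval. None of 8 tested genes of the beta-catenin destruction complex and GSK3 had an unadjusted p under 0.05, and their median log2 fold change was 0.13. *Axin2*, a scaffold of that complex that beta-catenin induces, was at 5.83 ± 3.54 and 4.12 ± 0.559 CPM, where miRNA-26b-/- mouse 2 alone stood high at 9.69 CPM. *Apc2*, another scaffold, was at 3.92 ± 2.14 and 2.82 ± 0.799 CPM with overlapping groups.

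*Hmga2* (ENSMUSG00000056758.14; chromosome 10, 120361275 to 120476469, reverse strand) had 1, 0 and 1 counts in miRNA-26b-/- and 0 in each miRNA-26b+/+ library. All 6 values lie under the 3 counts that a count of 0 allows, which is 0.0894 to 0.117 CPM, so neither a level nor a fold was given. It was not tested. Among 4 tested genes of the HMGA family and the let-7 pathway, 0 had an unadjusted p under 0.05 with edgeR, and the median log2 fold change was -0.13. *Hmga1* was at 5.78 ± 1.25 and 7.50 ± 5.61 CPM, and *Igf2bp2*, which HMGA2 is known to regulate, at 6.29 ± 2.97 and 7.36 ± 3.19 CPM, both with overlapping groups.

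**Figure D3:**
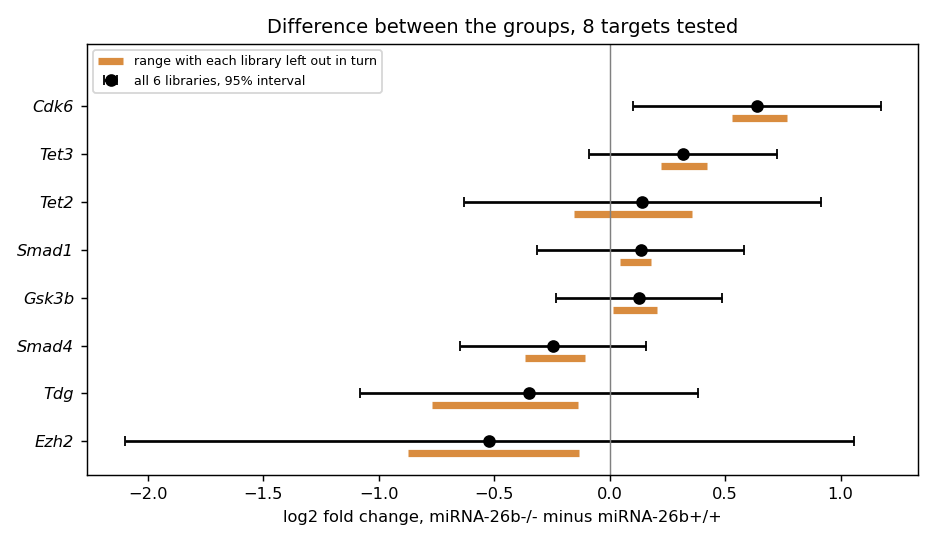
The log2 fold change of each of 8 targets (miRNA-26b-/- minus miRNA-26b+/+) with its 95% interval in black, and in orange the range when each library is left out in turn. The interval of *Cdk6*, 0.10 to 1.17, is the only one above 0, and the range of *Tet2* crosses 0.

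Grouped by their sites, the 4 tested targets with an 8mer in the longest 3′ UTR (*Gsk3b*, *Tet2*, *Tet3* and *Cdk6*) had log2 fold changes from 0.13 to 0.64, all above 0. The 2 tested targets with 7mers as their best site (*Smad4* and *Tdg*) were at -0.24 and -0.35, and the 2 whose 8mer is outside the longest 3′ UTR were at 0.13 (*Smad1*) and -0.52 (*Ezh2*). With 8mers counted in any annotated 3′ UTR, 5 of 6 targets with an 8mer were above 0, in a range from -0.52 to 0.64. The grouping thus depends on which 3′ UTR is used. The *Tet2* value turned below 0 without 1 library, and these groups are too small for a test. Over all tested genes with an 8mer in the longest 3′ UTR, 689 in number, the median log2 fold change was -0.00, 49.6% were above 0, and 3.05% were higher at an unadjusted p under 0.05. Of 10537 tested genes with no site, 52.6% were above 0 and 3.40% were higher. Genes with a 7mer as their best site were higher in 2.77%. Lower at that threshold were 3.05% of genes with an 8mer and 2.93% of genes with none. The share of higher genes was no greater among genes with an 8mer than among genes with none. These classes were not matched for 3′ UTR length, whose median was 2766 bases with an 8mer and 859.5 bases with no site. An effect of the site was not tested.

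The hosts of the family, *Ctdsp1*, *Ctdsp2* and *Ctdspl*, encode small phosphatases, and their introns hold Mir26b and both miRNA-26a loci. *Ctdsp1*, the gene that was edited, was at 201, 182 and 182 CPM in miRNA-26b-/- mice, against 148, 166 and 180 CPM in miRNA-26b+/+ mice, with a log2 fold change of 0.20 (SE 0.145, unadjusted p = 0.199). *Ctdspl* was at 102 ± 5.99 and 81.8 ± 7.06 CPM, with a log2 fold change of 0.31 (SE 0.162, unadjusted p = 0.0719). The groups did not overlap for either, and none of the 3 hosts had an unadjusted p under 0.05. Host RNA does not measure the mature miRNA-26a, whose level was not analysed here.

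**Figure D4:**
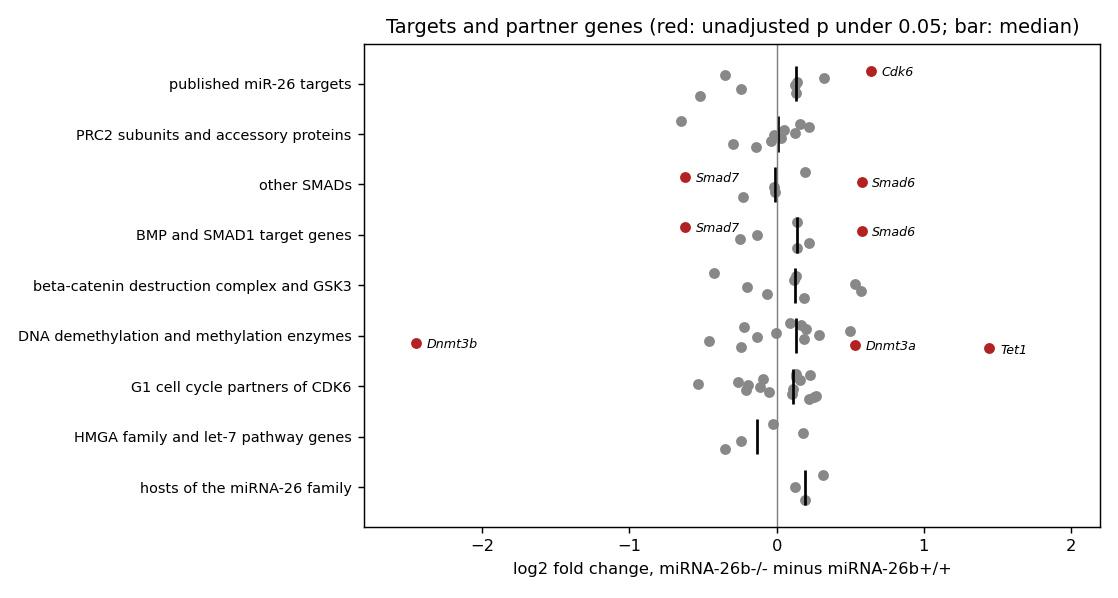
The log2 fold change (miRNA-26b-/- minus miRNA-26b+/+) of every tested gene of each list, 1 point per gene, with the median of the list as a black bar and genes at an unadjusted p under 0.05 in red. *Cdk6* is the only red point among the targets, *Tet1*, *Dnmt3a* and *Dnmt3b* are red among DNA methylation enzymes, and *Smad6* and *Smad7* are red in both lists that hold them.

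The targets did not move as one across the libraries. Pearson's r between the log2 CPM of 2 targets over the 6 libraries, given as a description since the libraries share the 2 genotypes, ran from -0.78 (*Tdg* with *Cdk6*) to 0.81 (*Tet3* with *Cdk6*), with 0.81 also for *Smad1* with *Gsk3b* and 0.65 for *Tet2* with *Tdg*. Among 11674 genes with a mean of at least 5 CPM, the gene most like *Cdk6* was *Fxyd7* (r = 0.998), that most like *Tet3* was *Naxe* (0.989) and that most like *Tdg* was *Gm45515* (0.996). For *Smad4* it was *Ajuba* (0.994), for *Smad1* *Gm47283* (0.994), for *Gsk3b* *Map1lc3b* (0.990), for *Tet2* *C1ra* (0.980) and for *Ezh2* *4930453N24Rik* (0.994). Between 14 and 67 genes passed an r of 0.95 for each target, so these are the first of many over only 6 libraries.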

How the data were processed

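Per the methods and the file headers, the authors mapped the reads to GRCm38/mm10 using STAR and assigned them to gene exons using featureCounts 1.6.4 and GENCODE M21 (the methods name a later release). The deposited values are raw counts. Strand was ignored, and a read on overlapping genes counted toward each of these. A second deposited table held the same counts (0 values differed) and log2 values per library, which were checked and not used further. Its columns of the authors' own comparison (fold changes, p-values) were not used.

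The low-count filter required a count sum of 2 or more, and over 1 CPM in 2 or more libraries, and left 16017 genes. These were scaled by TMM and fitted on genotype alone over all 6 libraries with edgeR 4.0.16 (quasi-likelihood; prior count 0.125; R 4.3.3), and p-values were adjusted by Benjamini-Hochberg over all genes tested. CPM use the library size over the genes tested, scaled by TMM. Each library is 1 mouse, so p-values measure the spread between these mice. Intervals are 95%, and the limit for a count of 0 was 3 counts, for counting error only. The 25.7 to 33.3 M counts per library set the precision.

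Sites were searched in 3′ UTRs of the GRCm38 annotation. The targets and lists were chosen with earlier results of these data known. The genes named are the targets, their hosts, in each list the genes with an unadjusted p under 0.05 (in a list with none, the 2 of largest absolute log2 fold change), and for each target the gene of highest correlation. Alternatives were the normalization, the test (DESeq2 1.42.0, limma 3.58.1), the filter, the prior count and each library left out. The procedure was tested on simulated data.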

Additional observations from a re-analysis of the deposited data

How the results depend on the processing

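No target had an adjusted p under 0.05 under any alternative run, against 1 target (*Cdk6*) at an unadjusted p under 0.05 with edgeR's quasi-likelihood test. *Cdk6* kept that unadjusted p in 13 of 13 other settings and in 3 of 6 fits without 1 library, with adjusted p from 0.255 to 0.984. With 1 library left out, the number of targets higher at an unadjusted p under 0.05 ranged from 0 to 1 and the number lower from 0 to 1, where *Tdg* was the target lower without miRNA-26b-/- mouse 3. The number of all genes with an adjusted p under 0.05 was 1 in the main test, 57 with DESeq2, 19 with a likelihood ratio test, 3 with limma voom, 3 with robust shrinkage and 0 with the earlier quasi-likelihood method, and from 0 to 82 with 1 library left out (82 without miRNA-26b-/- mouse 3). At an unadjusted p under 0.05 it was 1036, and from 686 (without miRNA-26b+/+ mouse 3) to 1692 (without miRNA-26b-/- mouse 3). Of the genes in the lists around the targets, 5 had an unadjusted p under 0.05, among them *Dnmt3b*, which passed the low-count filter only through the miRNA-26b+/+ libraries. With 1 library left out, from 3 to 7 genes had such a p. In the main test, 6.47% of all genes tested passed that threshold. With 1 library left out, log2 fold changes ran from -0.15 (without miRNA-26b-/- mouse 3) to 0.36 for *Tet2*, from -0.99 to 0.13 (without miRNA-26b+/+ mouse 2) for *Phf19*, from -0.056 (without miRNA-26b-/- mouse 2) to 0.87 for *Axin2*, from -1.04 to 0.16 (without miRNA-26b-/- mouse 2) for *E2f1*, from -0.047 (without miRNA-26b-/- mouse 3) to 0.52 for *Ccnd1*, and from -0.82 to 0.37 for *Hmga1* and -0.69 to 0.17 for *Igf2bp2* (both without miRNA-26b+/+ mouse 3), and each named value has the opposite sign to that with all libraries. *Hmga1* was also at 0.017 with limma voom. The cause was not tested. Counting sites in any annotated 3′ UTR gives 9 targets with a site, 6 of them with an 8mer. No paired analysis was possible because the labels give no replicate numbers that link mice of the groups. The groups did not overlap for 4 targets, and for 3 with libraries scaled by size alone (*Smad4* then overlapped). Depth limits *Hmga2*, and few counts together with the spread between mice limit *Ezh2*.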
